A study of Caenorhabditis elegans with 2 samples.

Results

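The heterochronic and molting-clock regulators are 10 genes that set the order and the timing of larval development in Caenorhabditis elegans: lin-14, lin-28, hbl-1, lin-46, lin-41, lin-29, lin-42, nhr-23, nhr-25 and blmp-1. They were chosen by gene symbol, as all probe sets that the platform annotation gives to exactly 1 gene among these 10. This found 19 probe sets for the 10 genes, of 17118 genes with a probe set of their own. The series compared messenger RNA in whole nematodes on 2 Affymetrix arrays, on which a set of short oligonucleotide probes reads each transcript. One array is labelled imp-2 RNAi: the animals ate Escherichia coli HT115 that made double-stranded RNA for imp-2, a gene of the presenilin-related IMPAS proteases. The other is labelled GFP RNAi, the control, in which the same bacterial strain made double-stranded RNA for green fluorescent protein. They are called the imp-2-labelled and the GFP-labelled sample here. The labels give no strain, age, stage or number of animals, and the source label also names a mammalian brain region, which a nematode lacks.

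With 1 array per group there was no replicate check and no test, and precision is limited by the number of arrays. Intensities ranged up to 11334 in the imp-2-labelled sample and 11100 in the GFP-labelled sample. Values under an array's own median, 35.3 in the imp-2-labelled sample and 30.1 in the GFP-labelled sample, were treated as readings at a floor. The targeted gene did not settle the labels. Its brighter probe set read 1754 in the imp-2-labelled sample and 2318 in the GFP-labelled sample, and its other set read 2517 in the imp-2-labelled sample and 510 in the GFP-labelled sample. Every direction below is therefore a direction between labels.

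Heterochronic genes act as a relay. The early factors lin-14, lin-28 and hbl-1 hold cells of the epidermis in early larval programmes until small RNAs of the lin-4 and let-7 families switch them off. Loss of lin-41, a let-7 target, then lets lin-29 start the adult programme. A separate rhythm of regulators, among them lin-42, nhr-23, nhr-25 and blmp-1, rises and falls with each molt, the shedding of the old cuticle.

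Most of their probe sets read at or near the floor in both samples. Of the 19 probe sets, 5 lay above both floors, 5 lay above only 1 of them and 9 lay under both. A gene counted as expressed when the mean log2 intensity of its brightest probe set over both arrays was above 5.01, the median over all probe sets that are not controls. By this rule 6 of the 10 genes were expressed: lin-28, hbl-1, lin-41, lin-29, nhr-23 and nhr-25. The lowest of these was nhr-25, with a mean of 5.26, and blmp-1 lay just outside, with 4.94. Both lin-29 and nhr-25 passed through 1 array alone, since the other array read them under its floor.

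**Figure D1:**
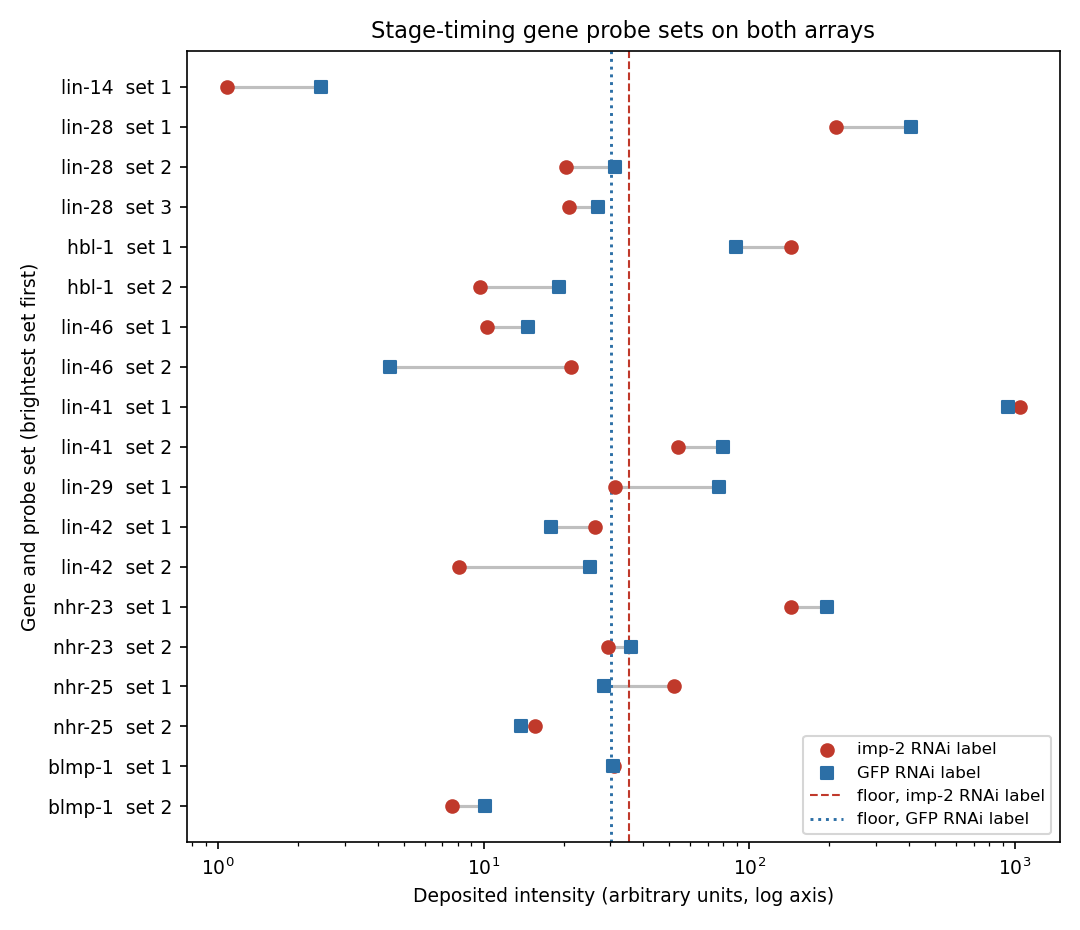
Deposited intensity (arbitrary units, log axis) of each of the 19 probe sets on the array labelled imp-2 RNAi (red circles) and the array labelled GFP RNAi (blue squares), 1 array each, with the floor of each array as a dashed and a dotted line. The 9 sets left of both floors cover lin-14, lin-46 and lin-42 entirely and the dimmer sets of 4 other genes.

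Between the labels the 6 expressed genes went in both directions. Log2 ratios (imp-2-labelled over GFP-labelled) were centred on the median of all expressed genes and lay between −1.14 and 0.78, with 3 above 0 and 3 below 0. None was at least 2-fold higher in the imp-2-labelled sample, where 9.72% of all 8553 expressed genes were. The only gene at least 2-fold lower was lin-29, while 2.27% of all expressed genes were. The median of the 6 genes was −0.16, beside 0 over all expressed genes. For scale, where a gene had several expressed probe sets, their log2 ratios differed with a spread of 0.37 (root mean square difference over the square root of 2, in 2489 pairs). That spread is within these 2 arrays and holds nothing about the variation between cultures.

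Among the early factors, lin-28 was the lower one in the imp-2-labelled sample and hbl-1 the higher one. The gene lin-28 encodes an RNA-binding protein that blocks the maturation of let-7. Its brightest probe set read 213 in the imp-2-labelled sample and 408 in the GFP-labelled sample, which is 1.93-fold lower (log2 ratio −0.95), just short of 2-fold. Without the filter on dim genes the log2 ratio was −1.17, past 2-fold, only because the centre removed was 0.23 in place of 0.01. The intensities of lin-28 were the same there. As the mean of its 3 sets, those under a floor raised to it, the log2 ratio was −0.19. Its other sets read 20.5 and 21.002 in the imp-2-labelled sample and 31.2 and 26.9 in the GFP-labelled sample. All 3 sets thus read lower in the imp-2-labelled sample, although those 2 sets lay near or under the floors. Of all expressed genes 2.61% had a ratio as low as that of lin-28, and 1.52% of the 855 genes of similar brightness did.

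The gene hbl-1 encodes a zinc finger transcription factor related to Hunchback of Drosophila and is repressed by let-7 family RNAs. It read 144 in the imp-2-labelled sample and 88.9 in the GFP-labelled sample, which is 1.61-fold higher (log2 ratio 0.68). Its other set was under both floors and pointed the other way, with 9.71 in the imp-2-labelled sample and 19.2 in the GFP-labelled sample. Of all expressed genes 16.5% had a ratio at least as high as that of hbl-1, and 26.3% of those of similar brightness did.

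Neither lin-14 nor lin-46 gave a usable difference. The gene lin-14, whose nuclear protein specifies the fates of the first larval stage, had 1 probe set, which read 1.08 in the imp-2-labelled sample and 2.44 in the GFP-labelled sample. The gene lin-46 encodes a scaffold-like protein that acts downstream of lin-28 and promotes later fates. Its sets read 10.3 and 21.4 in the imp-2-labelled sample and 14.7 and 4.45 in the GFP-labelled sample, opposite in direction and all under the floors. A value under the floor was not told apart from background here, and it does not show that the gene was off.

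Of the late factors, lin-29 was lower in the imp-2-labelled sample and lin-41 was nearly level on its brighter probe set. The zinc finger factor lin-29 drives the switch from larva to adult in the epidermis. It read 31.2 in the imp-2-labelled sample, below the floor of that array, and 77.2 in the GFP-labelled sample. Measured against the floor it was at least 2.20-fold lower (log2 ratio −1.14). A second lin-29 probe set is given to 2 gene IDs by the annotation and so is not among the 19; it read 13.2 in the imp-2-labelled sample and 11.2 in the GFP-labelled sample, under both floors.

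The gene lin-41 encodes a TRIM-NHL protein that binds RNA, is a target of let-7 and is also needed in developing oocytes. Its brighter set read 1047 in the imp-2-labelled sample and 940 in the GFP-labelled sample, which is 1.11-fold higher (log2 ratio 0.15). Its other set, also above both floors, read 54.1 in the imp-2-labelled sample and 79.6 in the GFP-labelled sample, which is 1.48-fold lower (log2 ratio −0.57). The sign for lin-41 thus depended on the probe set: the mean of both sets was −0.21. Without the filter on dim genes the brighter set had −0.07, through the larger centre of 0.23 removed there from the same intensities.

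The molting-clock factors were split as well. The nuclear hormone receptor gene nhr-23, the homologue of mammalian ROR receptors, is needed for molting. It read 143 in the imp-2-labelled sample and 196 in the GFP-labelled sample, which is 1.38-fold lower (log2 ratio −0.46). Its other set read 29.3 in the imp-2-labelled sample and 36.02 in the GFP-labelled sample, again the lower one in the imp-2-labelled sample. The receptor gene nhr-25, related to Ftz-F1 of Drosophila, read 52.1 in the imp-2-labelled sample and 28.4 in the GFP-labelled sample, the second value under its floor, so it was at least 1.71-fold higher (log2 ratio 0.78). Its other set read 15.6 in the imp-2-labelled sample and 13.8 in the GFP-labelled sample, under both floors. A ratio as low as that of nhr-23 was found for 14.6% of all expressed genes and for 17.5% of those in its brightness bin.

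The clock genes lin-42 and blmp-1 were not expressed by the rule above. The Period homologue lin-42, whose messenger RNA cycles with the molts, had sets reading 26.3 and 8.11 in the imp-2-labelled sample and 17.95 and 25.2 in the GFP-labelled sample, with opposite directions. The sets of blmp-1, which encodes a zinc finger repressor related to mammalian BLIMP1, read 30.9 and 7.61 in the imp-2-labelled sample and 30.7 and 10.1 in the GFP-labelled sample. The brighter set was level between the labels.

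Probe sets of the same gene did not always point the same way. Of the 8 genes with several sets, lin-28, nhr-23, nhr-25 and blmp-1 had all sets on the same side of 0 without the floor, although the brighter blmp-1 set was level. The other 4 (hbl-1, lin-46, lin-41 and lin-42) had sets on both sides. Over all 2981 genes with several sets, 59.2% had all sets on the same side. The counts include sets under the floors.

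**Figure D2:**
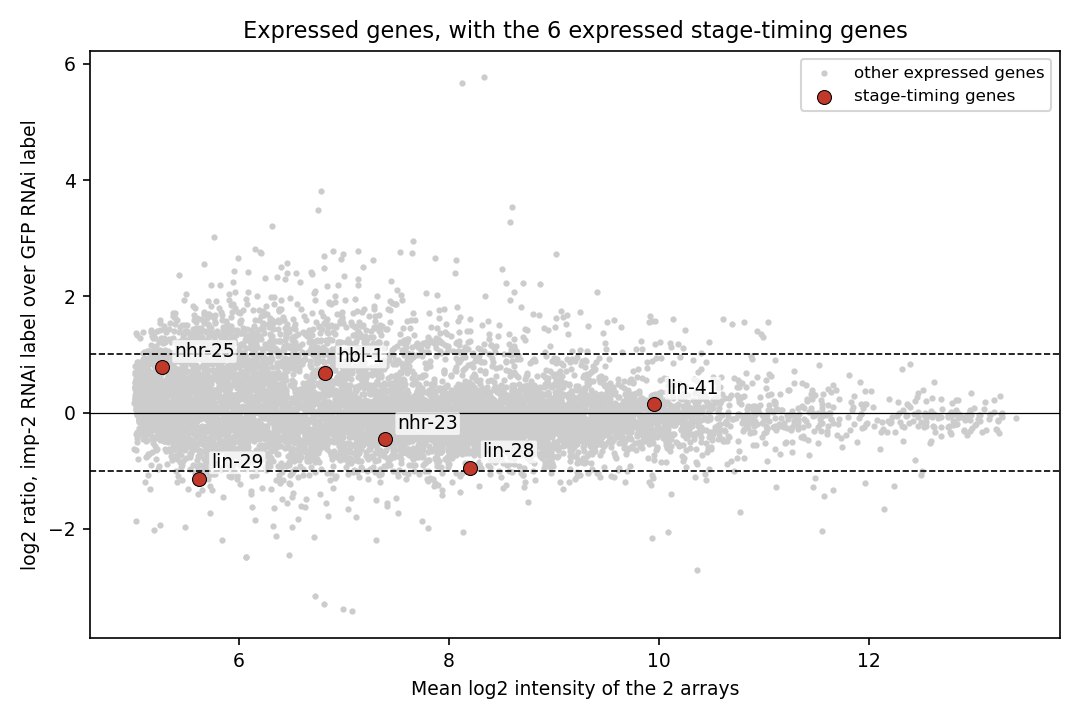
Log2 ratio (imp-2-labelled over GFP-labelled sample) against the mean log2 intensity of both arrays for the 8553 expressed genes (grey), with the 6 expressed heterochronic and molting-clock genes in red and 2-fold marked by dashed lines. One of the 6, lin-29, lies past the lower line, lin-28 lies next to it at −0.95, and the other 4 lie between −0.46 and 0.78.

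Other heterochronic genes and microRNA-pathway genes, which act with the 10, lay mostly within 2-fold. Of 16 expressed among 19 measured, none was at least 2-fold higher in the imp-2-labelled sample and 1 was 2-fold lower or more, beside 2.27% of all expressed genes. The other 15 stayed inside 2-fold, and the median log2 ratio was −0.01. The lower one was xrn-2, an exonuclease gene that acts in microRNA turnover. It read 144 in the imp-2-labelled sample and 287 in the GFP-labelled sample, which is 2.01-fold lower, and it no longer passed 2-fold when the ratios were not centred. With quantile normalization, and without the filter on dim genes (removed centre 0.23 in place of 0.01), 2 genes of the list passed 2-fold on the lower side. Next were nhl-2, a cofactor of the microRNA complex, 1.98-fold lower (40.7 in the imp-2-labelled sample, 79.9 in the GFP-labelled sample), and kin-20, the homologue of the clock kinase Doubletime of Drosophila, 1.66-fold lower. The Argonaute gene alg-1 was 1.29-fold lower, with 0.01 as the log2 ratio of its other set.

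Among other regulators of molting, 6 of 12 measured genes were expressed. None was at least 2-fold higher in the imp-2-labelled sample, where 9.72% of all expressed genes were. In the other direction 1 was 2-fold lower or more, beside 2.27% of all expressed genes. The median log2 ratio was 0.26. The lower one was myrf-2, a membrane-bound transcription factor gene, with 57.9 in the imp-2-labelled sample and 121 in the GFP-labelled sample (log2 ratio −1.07). Its other expressed set gave 0.16, and the mean of its sets did not pass 2-fold. The kinase genes nekl-3 and nekl-2, needed for molting, were 1.66-fold and 1.46-fold higher, and the dehydrogenase gene let-767 was 1.23-fold higher.

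Epidermal genes of the molt cycle and cuticle collagens lay mostly on the higher side in the imp-2-labelled sample, while the regulators did not share a direction. Of 7 expressed molt-cycle genes among 17 measured, 2 passed 2-fold on the higher side and none on the lower side. Their median log2 ratio was 0.58, and it was 0.36 with quantile normalization and 0.32 with intensity-dependent centring, where 1 gene each passed 2-fold. It was 0.96 without probe sets of possible multiple matches. Over all 17 measured genes, without the filter on dim genes, the median was 0 and 1 gene passed 2-fold. Genes under both floors have a log2 ratio of exactly 0 in that setting. That median thus comes from the floor and is not a measured lack of difference. The removed centre there was 0.23, which lowers the other ratios. The apical matrix gene noah-1 read 281 in the imp-2-labelled sample and 103 in the GFP-labelled sample, and mlt-8, named for a molting defect, read 68.5 in the imp-2-labelled sample and 31.4 in the GFP-labelled sample. The peptidase-like gene acn-1 was at least 1.77-fold and the fibrillin-related gene fbn-1 at least 1.499-fold higher, both read under the floor in the GFP-labelled sample. The larval cuticle collagen list had a median of 0.87 over 9 genes, of which 4 passed 2-fold on the higher side: dpy-5 (3.52-fold), col-14 (3.39-fold), rol-6 (at least 3.02-fold) and sqt-1 (3.005-fold). The median was 0.48 among genes above the 75th percentile of brightness, where 1 gene passed 2-fold, and 1.504 without probe sets of possible multiple matches. These counts stand beside the same 9.72% of all expressed genes. The brightest collagens of the list, named after their values were seen, differed less. The log2 ratio was −0.05 for dpy-13 and 0.09 for sqt-3, whose other set had 1.43. That of col-17 was 0.38. The labels give no stage, and the values do not show whether the collagens of this list are made only in larvae. Yolk genes, given below, read far above the floors in both samples.

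Genes of the adult cuticle and of yolk were measured as a stage readout. Yolk genes read far above the floors in both samples. The gene vit-6 read 6619 in the imp-2-labelled sample and 3927 in the GFP-labelled sample. The gene vit-2 read 2677 in the imp-2-labelled sample and 1722 in the GFP-labelled sample. RNA of yolk genes was thus present under both labels, so neither sample can be read as one without it. Of 8 expressed among 9 measured, 1 was at least 2-fold higher in the imp-2-labelled sample, where 9.72% of all expressed genes were. None was 2-fold lower, where 2.27% of all expressed genes were. The median log2 ratio was 0.57. The higher one was bli-1, a collagen gene of adult cuticle struts, which was at least 2.43-fold higher (73.8 in the imp-2-labelled sample, 15.1 in the GFP-labelled sample, under its floor), though not by the mean of its probe sets. The collagen gene rol-1 and the yolk protein genes vit-6 and vit-2 were 1.70-fold, 1.67-fold and 1.54-fold higher. Other yolk genes, also singled out after their values were seen, were divided. The log2 ratio of vit-1 was 0.51, on the same side, and the other set of vit-6 had 0.28. That of vit-5 was 0.0004, and vit-4 had −0.30, with −0.29 and −1.25 on its other sets. The gene vit-5 read 9889 in the imp-2-labelled sample and 9812 in the GFP-labelled sample. Those values lay near the highest on the arrays, 11334 and 11100. Whether ratios are compressed there was not tested. The adult collagen gene col-19, which lin-29 activates, read 1264 in the imp-2-labelled sample and 1194 in the GFP-labelled sample (log2 ratio 0.07); it was singled out after its value was seen. In the short list of dauer-associated genes, 2 of 7 measured genes were expressed, dct-1 (1.75-fold higher) and sod-3 (1.47-fold higher), and neither reached 2-fold.

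**Figure D3:**
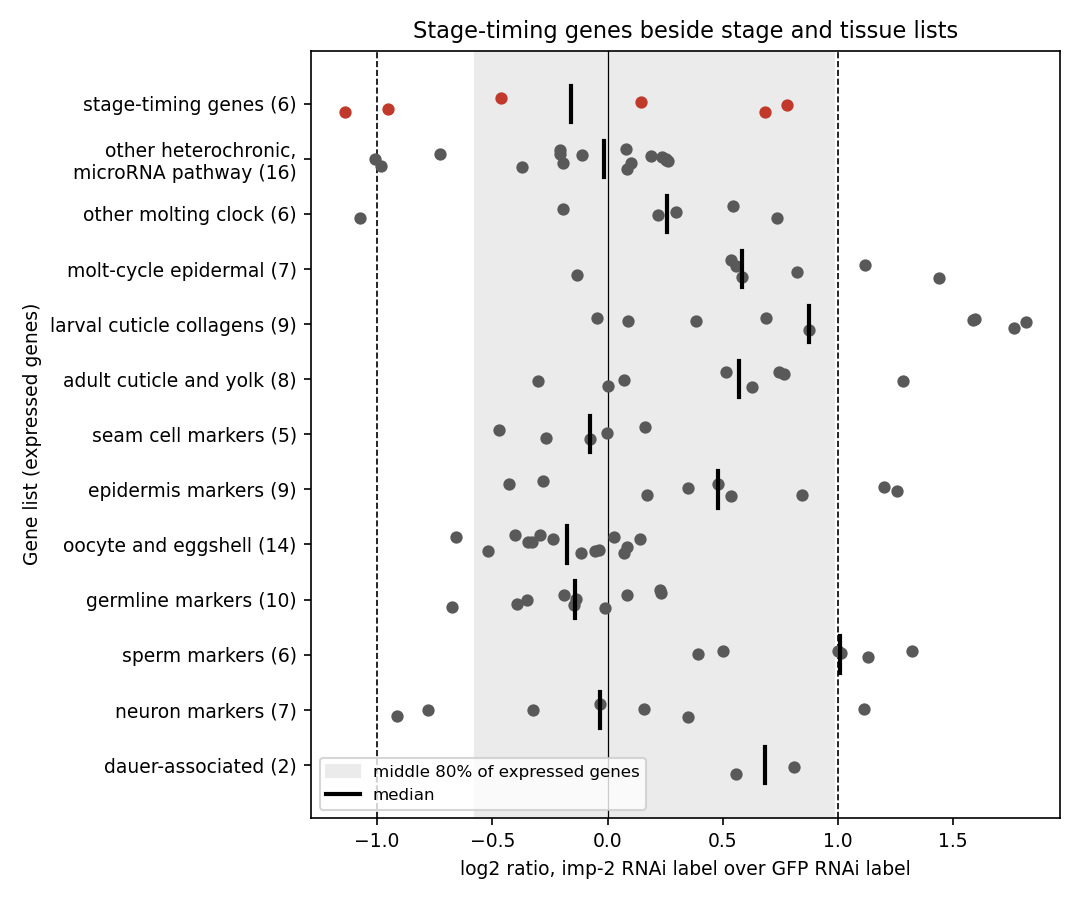
Log2 ratio (imp-2-labelled over GFP-labelled sample) of each expressed gene of the heterochronic and molting-clock set (red) and of 12 companion lists (grey), with the number of expressed genes in brackets, a black bar at each median, the middle 80% of all expressed genes shaded (−0.57 to 0.98) and 2-fold marked by dashed lines. The red points spread from −1.14 to 0.78, and the medians of the larval collagen and sperm lists are 0.87 and 1.01 under this setting.

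Whole animals hold many tissues, and in such bulk RNA fewer cells of a type and less RNA per cell cannot be told apart. Both lin-28 and lin-41 are also expressed in the germline, and nhr-23 in developing sperm. All 14 oocyte and eggshell markers and all 10 germline markers were expressed on the arrays, and none differed by 2-fold. Of all expressed genes 9.72% were at least 2-fold higher in the imp-2-labelled sample and 2.27% at least 2-fold lower. The 2 marker lists had no gene on either side. Their median log2 ratios were −0.18 and −0.14. The summed intensity of the oocyte list was 41734 in the imp-2-labelled sample and 46828 in the GFP-labelled sample, and that of the germline list was 11165 in the imp-2-labelled sample and 12432 in the GFP-labelled sample. The ratios farthest from 0 in the oocyte list were those of mex-3 (1.58-fold lower), perm-2 (1.43-fold), cpg-2 (1.32-fold) and oma-1 (1.27-fold). In the germline list gld-1 was 1.60-fold, pgl-3 1.31-fold and pgl-1 1.27-fold lower, and glp-1 was 1.17-fold higher.

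Sperm markers stood on the other side. Of 6 expressed among 10 measured, 3 were at least 2-fold higher in the imp-2-labelled sample, spe-41 (at least 2.50-fold), ssp-16 (2.19-fold) and gsp-4 (2.02-fold), and the summed intensity was 2955 in the imp-2-labelled sample and 1520 in the GFP-labelled sample. Their median was 1.01. In the main setting 9.72% of all expressed genes passed 2-fold on the higher side and 2.27% on the lower side. The other marker counts below stand beside the same shares, and no difference from these shares was tested. Without the filter on dim genes, where the removed centre was 0.23 and genes under both floors had 0, 1 sperm marker passed 2-fold and the median was 0.24. Of 9 expressed epidermis markers 2 were at least 2-fold higher, let-805 and mup-4, and 1 was when the filter on dim genes was dropped or each gene was the mean of its sets. On the lower side were vab-10 (−0.43, with 0.53, −0.64 and 0.87 on its other sets) and lin-26 (−0.28), both named after their values were seen. The epidermis markers had sums of 1663 in the imp-2-labelled sample and 1334 in the GFP-labelled sample and a median of 0.48, which was 0.30 with quantile normalization. The seam cells of the epidermis, in which heterochronic genes act, had 5 expressed markers of 7 measured, all within 2-fold. Their median was −0.07 (−0.32 with quantile normalization). They summed to 985 in the imp-2-labelled sample and 951 in the GFP-labelled sample. Most of that sum was grd-3, with 739 in the imp-2-labelled sample and 656 in the GFP-labelled sample. It was the only 1 of the 5 with a ratio above 0. Of 7 expressed neuron markers among 9 measured 1 was at least 2-fold higher (unc-64, 2.16-fold). No neuron marker was with quantile normalization, with intensity-dependent centring or without the filter on dim genes. The same held among genes above the 75th percentile of brightness and without probe sets of possible multiple matches. In the main setting none was 2-fold lower, while 1 was with intensity-dependent centring and without the filter on dim genes. The synaptic gene ric-4 was 1.88-fold and unc-119 1.72-fold lower, and egl-21 was 1.27-fold higher. Their median was −0.03, with sums of 1856 in the imp-2-labelled sample and 1760 in the GFP-labelled sample. No marker was listed at 0. What part such tissue differences had in the values of lin-28, lin-29, nhr-23 or the other regulators was not tested, and neither was a difference in stage.

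**Figure D4:**
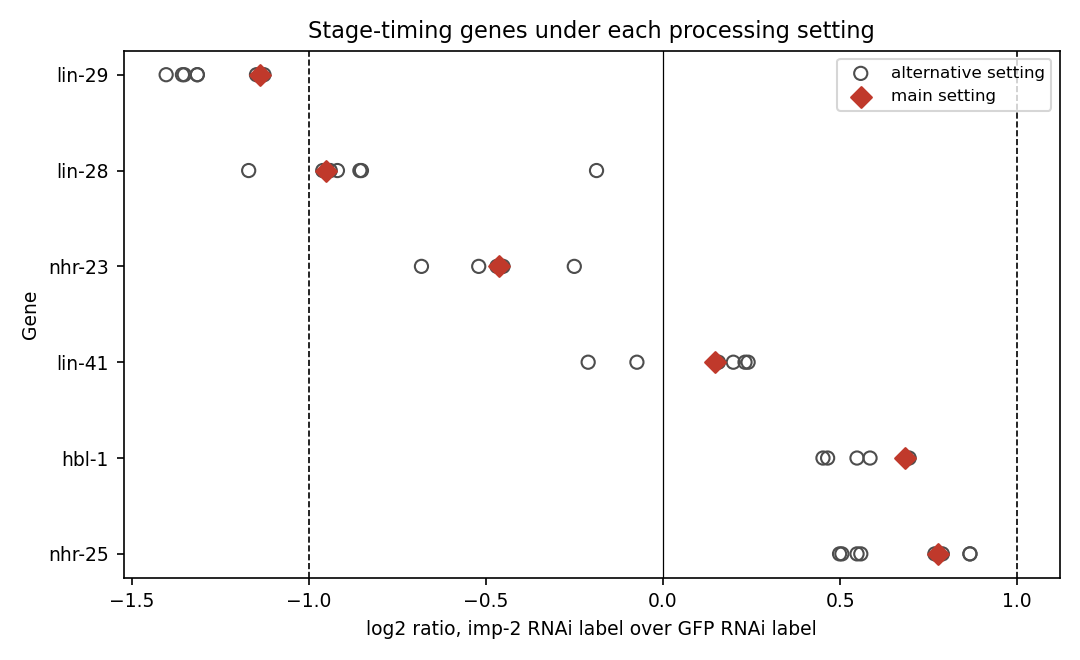
Log2 ratio (imp-2-labelled over GFP-labelled sample) of the 6 expressed genes under the main setting (red diamonds) and each alternative setting that gave a value (open circles), with 2-fold marked by dashed lines. The values of lin-29 stay past 2-fold lower in each of these settings, lin-28 ranges from −1.17 to −0.19, and lin-41 lies on both sides of 0.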

How the data were processed

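Total RNA of whole animals was profiled on 2 arrays, 1 per group, grouped by the RNA fed, per the labels. The authors deposited 1 linear intensity for each probe set. The same trimmed mean on both arrays (150.04, 2% off each end) is what scaling to a common target gives; the methods of background correction, summarisation and scaling, not given in the sources used here, remain unknown. Leaving out controls, 20766 of 22548 probe sets had 1 gene in the platform annotation; 20701 of them matched the WBcel235 gene table, and 0 symbols changed.

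Values under each array's median were raised to it, converted to log2 and subtracted (imp-2-labelled minus GFP-labelled). Ratios were centred on the median of expressed genes, a shift of 0.01. The brightest probe set stood for a gene. A bound uses the floor in place of the dim value. Brightness was compared in 10 bins of expressed genes. No p-value was computed. The steps were tested on simulated data. The genes changed there all lay well above the floor, so bounds such as that of lin-29 were not covered. Python 3.11.15, pandas 2.3.3 and statsmodels 0.14.6 were used.

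The genes and all lists were chosen with earlier results of these data known. From each list up to 4 genes with the largest absolute log2 ratio were named. Of the listed genes, 13 symbols had no probe set of their own under that name, 2 of them older names of listed genes.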

Additional observations from a re-analysis of the deposited data

How the results depend on the processing

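The count of 0 genes at least 2-fold higher held under 9 of the 10 alternatives and was 2 (hbl-1 and nhr-25) at a 1.5-fold call. The 1 gene at least 2-fold lower, lin-29, became 2 with lin-28 without the filter on dim genes, where the removed centre was 0.23 (lin-28 then had −1.17), and 2 with lin-28 at a 1.5-fold call. It became 0 among genes above the 75th percentile of brightness, which lin-29 does not reach. The median of the expressed genes moved to −0.96 when probe sets with possible matches to several transcripts were left out, where 3 genes were left. Each of these changes follows from the genes an alternative keeps, the centre they set or the threshold. Without the filter on dim genes that centre is the log2 ratio of the 2 floors, so genes under both floors have 0. The other medians lay between −0.31 and −0.01. The mean of all probe sets gave −0.19 for lin-28, since its other sets sit at the floor. Across all settings that gave a value, lin-29 lay between −1.40 and −1.13, nhr-23 between −0.68 and −0.25, hbl-1 between 0.45 and 0.69 and nhr-25 between 0.50 and 0.87, while lin-41 was below 0 in 2 of 10. Of the companion list values, 42 of 354 moved and 0 reversed. Among all called genes 81.1% were higher in the imp-2-labelled sample, and 56.9% without the filter on dim genes, where the removed centre was 0.23. Signal near the floor limits lin-14, lin-46, lin-42 and blmp-1, for which no ratio is given.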
